A study of Mus musculus with 6 samples.

Results

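Antisense noncoding genes are genes transcribed from the DNA strand opposite to another gene, here those of the type antisense in the mouse annotation GENCODE M21. In fetal hearts, 722 of 2939 such genes had a mean value of 10 or more over 6 libraries, and they were described together with the protein-coding gene on the other strand (the partner). The imprinted RNAs Airn and Kcnq1ot1, of the same type, were left out. The other 2217 genes stayed under that mean, 733 of them with no read. Members were chosen by this mean over all 6 libraries, a level and not a contrast, so their levels are a description. Just inside the bound stood 4921501I09Rik at 10.06, Gm16124 and Hoxb5os at 10.07, and just outside it stood Gm16136 at 9.98, Gm43599 at 9.82 and Gm7628 at 9.74.

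The study exposed pregnant FVB/NJ mice, an inbred wild-type strain, to inhaled nano-TiO2, nanoparticles of titanium dioxide, or to filtered air (sham). Dams were 10 weeks old, 14 in all. The aerosol had a target of 12 mg/m3 and was given 360 minutes a day on 6 days spread over 8 days, starting at gestational day 5. Fetal hearts of both sexes were taken on gestational day 15 and pooled, giving 3 pools per group. The libraries are the inputs of an m6A (N6-methyladenosine) immunoprecipitation study, made from 3 µg of fragmented RNA with no antibody, and they measure RNA abundance. How many litters a pool holds is not given, so p-values reflect the spread between these pools, which may be technical. In pooled whole hearts, fewer cells of a type and less RNA per cell cannot be told apart.

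Antisense RNAs can act on the gene they overlap by pairing with its transcript, by occupying its DNA while it is copied, or by recruiting chromatin proteins, and others act elsewhere in the cell or merely host a small RNA. In the heart, Mhrt (myosin heavy chain associated RNA transcript) is read against the myosin gene Myh7 and is known for binding the chromatin remodeller Brg1. Dnm3os is the precursor of the microRNAs miR-199a and miR-214 within an intron of Dnm3. A read from a shared exon can only be given to one of both genes if the strand of the RNA is known.

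The deposited table holds reads in steps of 25 bases along each gene, divided by a size factor of each library, and a value below is that number summed over a gene. Each library held 15735142 to 29740017 reads. Members took 0.828% to 1.13% of the table. The median member had a value of 43.3, 394 of 722 members lay under 50 and 19 reached 1000. The 8 highest held 59.3% of all member value. All 8 heart muscle markers were found, at a summed 24231 to 31491 CPM (recovered reads scaled to a common library total) in sham and 32720 to 35342 in nano-TiO2. Of these 8, 2 rose and 2 fell. Scaling to library totals differs from the size factors behind the values below, and it moves the median log2 change of all genes to 0.42. The 8 red-cell markers summed to 90271 to 172467 in sham and 48492 to 86552 in nano-TiO2, highest in sham 2, and 3 of them fell. The 7 liver markers reached 507 CPM in sham 2 and were at most 25.5 in the nano-TiO2 libraries, while the 3 lung markers reached 1129 in nano-TiO2 3 and were at most 86.0 in sham. The part of these differences in the results below was not tested, and results without sham 2 and nano-TiO2 3 are given.

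Partners were found for 701 members, 681 different genes in all. Of these members, 291 lay inside the span of the partner, 193 were placed head to head with it, 187 tail to tail, and 30 contained it. The sequences that follow show both kinds of overlap. The first group shows edges of exons that an antisense gene shares with a coding gene (GRCm38, from GENCODE M21 transcripts, each on the antisense gene's own strand), with the coding bases of the partner in capitals. These edges lie at chr14:54974037-54974096 on the plus strand, chr14:54942323-54942382 on the plus strand and chr7:19421178-19421237 on the minus strand. They are shown because most of the value of these 3 members lay over such exons, after the move of positions described below.
Mhrt over Myh7: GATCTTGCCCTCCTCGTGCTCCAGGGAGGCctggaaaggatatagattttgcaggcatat
Gm49130 over Myh6: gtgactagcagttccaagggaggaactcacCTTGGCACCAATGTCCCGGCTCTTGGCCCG
A930016O22Rik over Ckm: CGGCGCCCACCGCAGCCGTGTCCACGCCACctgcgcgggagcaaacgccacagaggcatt

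The second group shows RefSeq promoter windows (GRCm38.p6), 250 bases before to 50 after the annotated start. The windows of Gm30934 (chr9:44920477-44920776, plus strand) and of Atp5l (chr9:44920693-44920992, minus strand) are shown because both genes fell together. Their 84 shared bases are in capitals, and their starts lie 15 bases apart.
Gm30934: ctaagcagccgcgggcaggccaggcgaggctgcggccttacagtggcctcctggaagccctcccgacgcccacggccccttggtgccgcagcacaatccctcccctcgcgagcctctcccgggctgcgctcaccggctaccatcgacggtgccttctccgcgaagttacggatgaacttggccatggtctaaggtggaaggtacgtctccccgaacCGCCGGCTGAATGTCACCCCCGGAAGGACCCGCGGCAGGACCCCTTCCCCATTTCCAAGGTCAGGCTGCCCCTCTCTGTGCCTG
Atp5l: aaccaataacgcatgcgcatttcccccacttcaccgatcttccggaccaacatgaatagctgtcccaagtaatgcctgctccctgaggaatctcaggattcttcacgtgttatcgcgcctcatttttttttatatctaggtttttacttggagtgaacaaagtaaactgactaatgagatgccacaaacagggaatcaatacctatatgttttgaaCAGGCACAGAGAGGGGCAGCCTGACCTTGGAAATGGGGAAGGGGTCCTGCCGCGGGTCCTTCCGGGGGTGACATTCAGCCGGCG
Dnm3os (chr1:162217373-162217672, plus strand) and Nr6a1os (chr2:38815722-38816021, plus strand, the most upstream of its starts) lie in introns of their partners. Neither had value over opposite exons. Their capitals mark the bases from the start on.
Dnm3os: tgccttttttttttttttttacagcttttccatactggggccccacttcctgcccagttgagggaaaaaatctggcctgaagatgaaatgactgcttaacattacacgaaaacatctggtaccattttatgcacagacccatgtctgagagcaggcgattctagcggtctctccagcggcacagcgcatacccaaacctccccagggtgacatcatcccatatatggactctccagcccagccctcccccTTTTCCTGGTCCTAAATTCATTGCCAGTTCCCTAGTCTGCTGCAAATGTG
Nr6a1os: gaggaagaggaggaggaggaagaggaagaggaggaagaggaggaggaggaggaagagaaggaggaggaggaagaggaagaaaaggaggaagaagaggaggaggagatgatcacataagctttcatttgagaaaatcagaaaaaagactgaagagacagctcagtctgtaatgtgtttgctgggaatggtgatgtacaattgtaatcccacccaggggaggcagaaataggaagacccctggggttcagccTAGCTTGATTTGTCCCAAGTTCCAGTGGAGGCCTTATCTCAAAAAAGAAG
On either strand, TATAAA occurred in 13.6% of 32851 windows and in 8.15% of the 319 member windows, and once in the Atp5l window. CCAAT occurred in 37.4% and 34.2%, also once in the Atp5l window. GGGCGG occurred in 35.7% of both and in none of the 4 windows printed. The CArG box occurred in 1.63% and 1.25%, and once in the Dnm3os window. Of the members, 249 matched a RefSeq promoter by symbol. A match says only that the letters are present.

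The value of the antisense genes lay mostly over exons of the genes opposite to them. Before bins were placed, the deposited positions were compared between both genes of a pair over the same exon bases, and the profiles matched best when positions were moved 100 bases towards each gene's own end (median profile correlation 0.48 at 100 bases and -0.00 at no move, both as descriptions over 179 and 150 pairs). After that move, 86.3% to 88.0% of member value per library fell on bins that touch an exon of an opposite-strand gene, although such bins were 26.9% of all member bins. A further 3.72% to 4.63% fell within 50 bases of such an exon or of a same-strand one. Bins inside the opposite coding gene but off its exons took 4.01% to 4.88%, bins outside opposite coding genes 2.03% to 3.11%, and exons of another gene on the same strand 1.50% to 2.09%. With positions as deposited, 64.5% to 66.3% fell on opposite exons. The share of a single member's value over opposite exons is given after the move throughout.

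**Figure D1:**
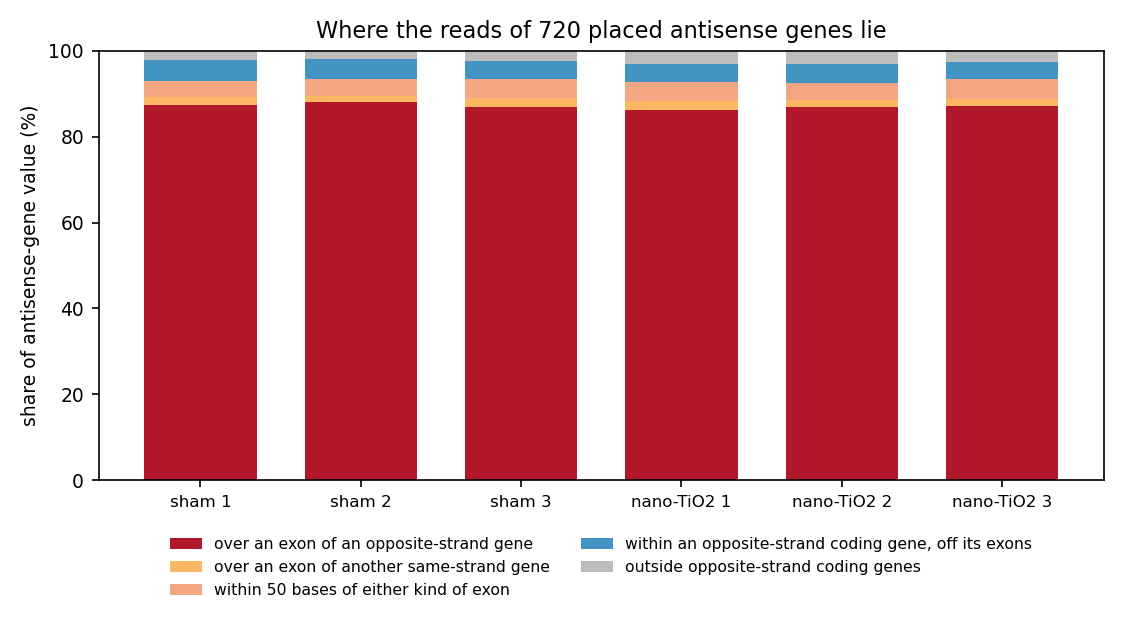
Stacked bars give the share (%) of the summed value of the placed antisense genes by the kind of place, for each of 3 sham and 3 nano-TiO2 libraries. The share over opposite-strand exons was between 86.3% and 88.0% in every library.

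The mean value per bin was 12.8 over opposite exons, 0.486 inside the opposite coding gene off its exons and 0.318 outside, and 10.8 over exons of another gene on the same strand. Without the 8 highest members these were 4.84, 0.227, 0.318 and 10.8, so that bins inside stood below bins outside, and the share over opposite exons was 77.6% to 82.8%. The median member had 88.0% of its value over opposite exons. Of the 720 members that could be placed, 552 had 50% or more there, 347 had 90% or more, 105 had all of it and 72 had none.

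The values given to both genes of a pair over the bases they share depend on where the bins are placed. Here, and in the choice of the move, a pair is a member with any opposite-strand coding gene sharing exon bases, not only its partner. The move of 100 bases was chosen by how well both genes matched over shared bases, so the closeness after it is a description and no independent check of it. After the move, 127 pairs had 500 or more shared exon bases and a value of 50 or more there. Their median ratio of antisense to coding value was 0.922 (quartiles 0.801 and 0.983), and 123 pairs lay within 2-fold. Among all 290 pairs with 100 or more shared bases the median ratio was 0.889 and 250 lay within 2-fold. With positions as deposited, 78.0% of the former and 57.6% of the latter did. Over 897 shared bases A430057M04Rik was given a mean of 371 and Comtd1 405 after the move, and 174 and 476 as deposited. Gm13054 was given 20515 and Nppa 26850 over 532 bases after it, and 12110 and 22116 as deposited. Over 484 bases Mhrt was given 57687 and Myh7 31707, the antisense gene being the higher both then and as deposited (39996 and 28293). Shorter overlaps were less even, as in 156 bases of Gm16272 with 103 and Ndufb2 with 644. Among the 163 pairs that share under 500 bases, 127 lay within 2-fold. The strand setting of the table is not given in the sources used here, and without strand the reads of both genes cannot be told apart. A member's value over shared exons, or inside its partner off the exons, is therefore given below as a value at that place. It is not given as a level of antisense RNA.

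**Figure D2:**
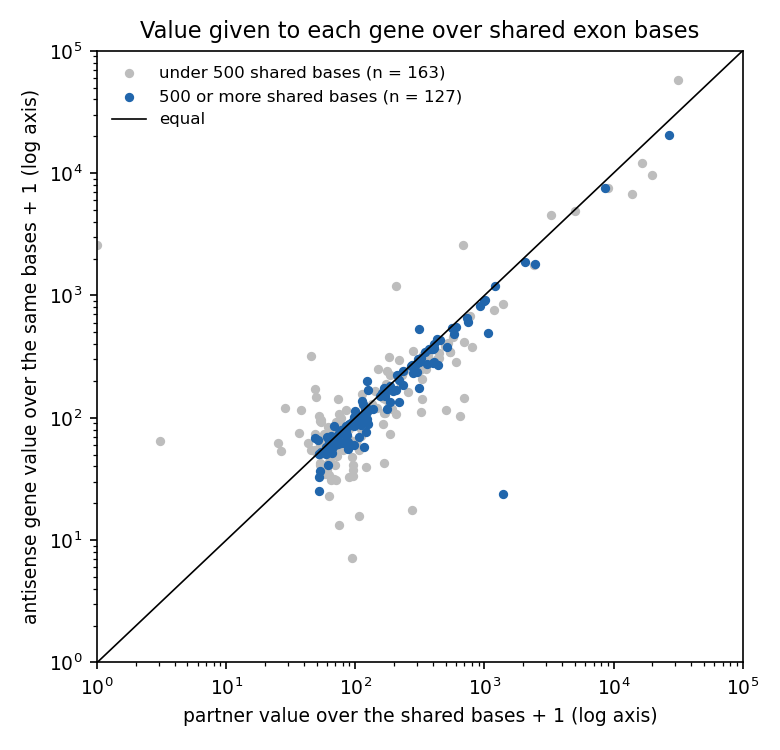
Each point is a pair of an antisense gene and any opposite-strand coding gene that shares exon bases with it. Values given to the coding gene (x, log axis, labelled partner) and to the antisense gene (y, log axis) are over the same exon bases. They are means of 6 libraries after the 100-base move. Of the pairs with 500 or more shared bases, 123 of 127 lay within 2-fold of the line of equal values.

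Of the 8 highest members, most lay against genes of heart muscle. Mhrt (chromosome 14) had values of 56052, 70496 and 58926 in sham and 54141, 45192 and 63816 in nano-TiO2. Myh7, which encodes the slow beta-myosin heavy chain, had 194943, 180790 and 224297 against 175655, 160836 and 158163. The Mhrt groups overlapped and the Myh7 groups did not. The limma log2 change was -0.19 ± 0.16 (SE) for Mhrt (Benjamini-Hochberg adjusted p = 0.379) and -0.27 ± 0.13 for Myh7 (adjusted p = 0.144). In the profiles along the joined exons, 99.97% of the Mhrt value lay on bins that touch opposite exons, such as the Myh7 exon printed above, and its bins clear of any exon of another gene summed to a mean of 10.6. In those bins Mhrt had 9.31, 6.47 and 1.82 in sham and 16.3, 13.8 and 16.1 in nano-TiO2. Its log2 change there was 1.44 ± 0.56 and did not pass (adjusted p = 0.0812, limma). The means in those bins were 5.87 in sham and 15.4 in nano-TiO2. Mhrt thus met the bound of 10 there only through nano-TiO2, so a rise was favoured.

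**Figure D3:**
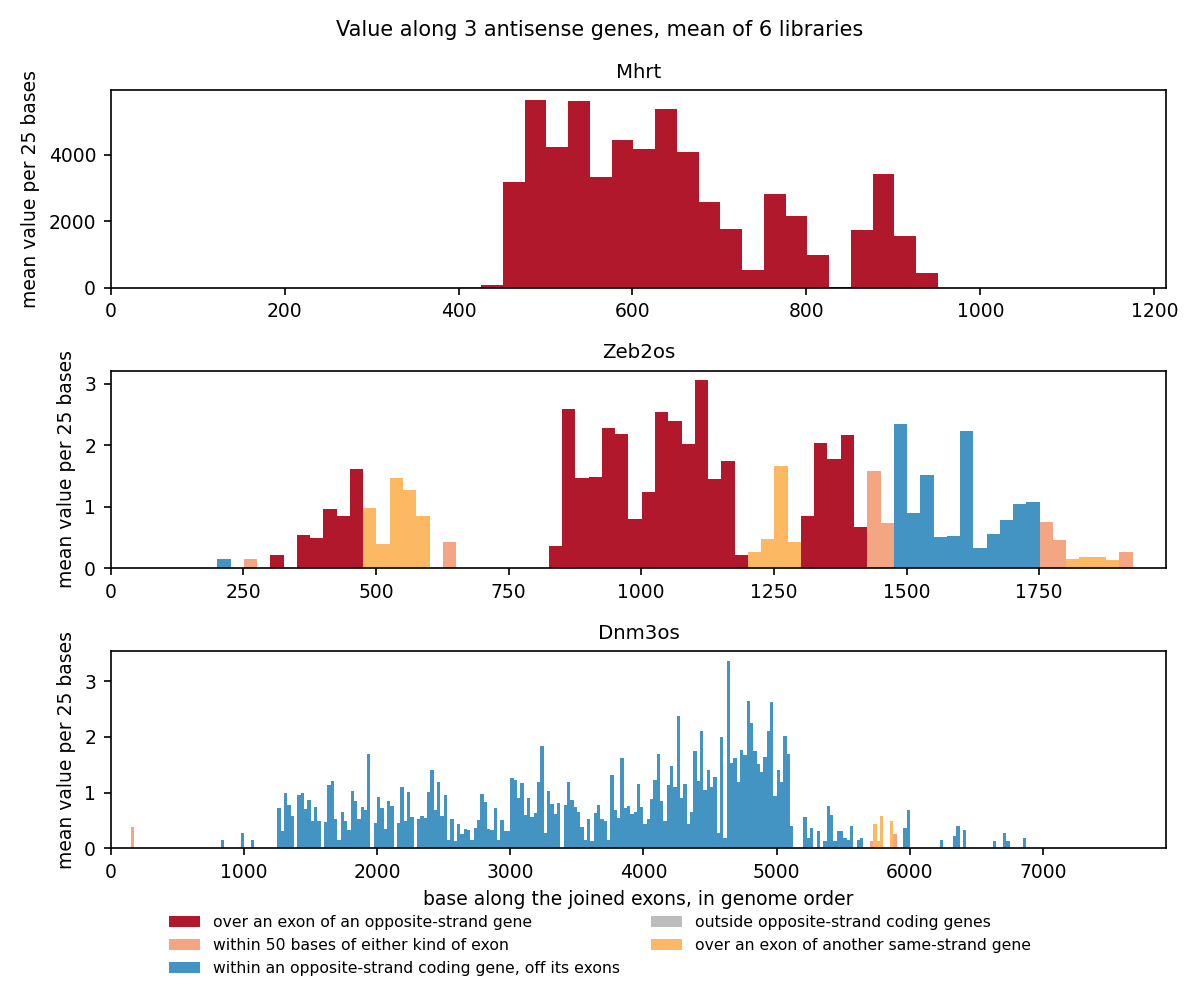
Bars give the mean value of 6 libraries per 25 bases along the joined exons of Mhrt, Zeb2os and Dnm3os in genome order, after the 100-base move, coloured by place. Mhrt holds its value over opposite-strand exons, Zeb2os over several kinds of place and Dnm3os within an intron of Dnm3.

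Gm29015 and Gm31251, also against Myh7, and Gm49130, against Myh6 (the alpha-myosin heavy chain), had means of 8285, 8277 and 8016. At least 99.4% of the value of each lay over opposite exons. None of these 3 passed the limma test. After removal of a smooth trend on exon length and GC content from every library, Gm29015, at -0.19 with the main scaling, passed in the opposite direction, at 0.90 (adjusted p = 0.0129, limma).
Gm13054, against the gene of atrial natriuretic peptide Nppa, had 18478, 26041 and 20139 in sham and 29903, 20463 and 32070 in nano-TiO2, and Nppa had 27430, 38428 and 30611 against 44247, 30834 and 47621. Both were lowest in the same library of each group, the groups overlapped, and both log2 changes were 0.34 ± 0.19 (adjusted p = 0.216 and 0.209, limma). Without nano-TiO2 2 the change of Gm13054 passed (adjusted p = 0.0355), as it did after removal of the trend, at 0.96 (adjusted p = 0.0198).
A930016O22Rik, against the muscle creatine kinase gene Ckm, ran from 10394 to 25576 in sham and from 5126 to 15254 in nano-TiO2, highest in sham 3 and lowest in nano-TiO2 2, as was Ckm.
Gm47428, against Ftl1-ps1, a gene of the ferritin light chain family whose near-identical copies can share reads, had 15845, 18336 and 11375 in sham and 7976, 10729 and 8388 in nano-TiO2. The groups did not overlap, and its change of -0.73 ± 0.19 passed (adjusted p = 0.0221, limma). Leaving out either of sham 1 and sham 2, or nano-TiO2 1 or 3, ended that call, with an adjusted p of up to 0.0838. Removal of the trend ended it too, at -0.30 (adjusted p = 0.329). All its value lay over opposite exons.

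Between sham and nano-TiO2, 50 members were higher and 29 lower after exposure (limma with Benjamini-Hochberg adjustment over 18496 genes), or 10.9% of 722. Over all genes tested 27.4% passed, 14.9% higher and 12.6% lower. The groups did not overlap in 220 members (30.5%), against 45% of all genes tested. The median log2 change was -0.01 for members and -0.04 for all genes. Members have low values, so genes of like value are set beside them. From 10 to 50, 6.35% of members and 8.70% of all genes passed, from 50 to 250 10.5% and 25.3%, and from 250 up 32.2% and 38.0%.
The members that rose had a median value of 55.3, a median exon length of 1888 bases and a GC content of 48.1%, and 28 of 50 lay inside their partner. Those that fell had a median value of 461, an exon length of 1159 bases and a GC content of 54.4%. Of the 50, 37 had 50% or more of their value over opposite exons, and of the 29, 26 did. The bound on the mean can be reached through 1 group alone, and such members had to differ to be members. Of the 50, 9 had a sham mean under 10, and of the 29, 1 had a nano-TiO2 mean under 10. Over all genes tested, 127 of the 2747 higher had such a sham mean, and 17 of the 2329 lower such a nano-TiO2 mean. Among the 654 members with both group means at 10 or more, 41 were higher and 28 lower, with no share over all such genes beside these counts.
When 1 library was left out, 28 were higher and 15 lower in the absence of sham 1, 18 and 9 in that of sham 2, 13 and 8 in that of nano-TiO2 1, and 16 and 9 in that of nano-TiO2 3. In the same order, 10.4% and 5.82%, 8.57% and 4.81%, 6.99% and 4.15%, and 8.04% and 5.55% of all genes passed. With both sham 2 and nano-TiO2 3 left out no member and no other gene passed by limma. By unadjusted limma p under 0.05, 48 members were above and 36 below sham, with no share over all genes beside these counts. All 79 called members kept their sign, but the libraries that remained also went into those calls, so this is no independent check. With library totals as the only scaling, which moves the median of all genes to 0.42, 151 were higher and 0 lower, where 31.4% and 0.189% of all genes passed. After the same removal of the trend, 46 members were higher and 9 lower, against 4.13% and 4.5% of all genes.

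Most of the 8 largest falls were of members whose value, after the 100-base move, lay over exons of a coding gene that fell as well. Gm30934 (chromosome 9) had 2814, 2945 and 5172 in sham and 2426, 1357 and 2093 in nano-TiO2, and Atp5l, which encodes a subunit of mitochondrial ATP synthase, had 10922, 11690 and 18987 against 9035, 5308 and 8407. Both were highest in sham 3, lowest in nano-TiO2 2, and did not overlap. The log2 change was -0.88 ± 0.27 for Gm30934 (adjusted p = 0.0419, limma) and -0.86 ± 0.25 for Atp5l (adjusted p = 0.033). Of the Gm30934 value, 99.7% lay over opposite exons after the 100-base move, and that share rests on the move. Over the 133 bases shared with Atp5l, Gm30934 had a mean of 2.16 as deposited and 2607 after the move. Atp5l had 0 there both ways. The call for Gm30934 held only when sham 1 was the library left out (highest adjusted p of the others 0.0942). It was also lost with edgeR (adjusted p = 0.0525) and after removal of the trend on exon length and GC content (-0.22, adjusted p = 0.727).
Gm20632 and Gm20633 (chromosome 3), which each contain a histone H2A gene on the other strand, had 681, 799 and 658 against 386, 362 and 402, and 540, 661 and 549 against 282, 312 and 319. Both pairs of groups stood clear of each other. The changes were -0.89 ± 0.15 and -0.93 ± 0.15 (adjusted p = 0.00549 and 0.00563, limma), beside -0.99 for Hist2h2aa2 and -1.01 for Hist2h2aa1. These 4 genes overlap near-identical histone copies, so their split is uncertain.
A430057M04Rik (chromosome 14), against Comtd1, a gene of a methyltransferase-like protein, had 456, 576 and 505 in sham and 250, 289 and 291 in nano-TiO2, a change of -0.88 ± 0.16 beside -0.89 ± 0.16 in Comtd1 (adjusted p = 0.00709 and 0.00652, limma). Gm33051 (chromosome 3), against the ribosomal protein paralog Rpl22l1, had 344, 457 and 416 against 192, 196 and 254, a change of -0.92 ± 0.19 (adjusted p = 0.00969) beside -0.71 ± 0.13. Neither gene's groups overlapped. After the 100-base move, 98.2% and 100% of their value lay over opposite exons. Over the 159 bases shared with Rpl22l1, Gm33051 had a mean of 27.1 as deposited and 284 after the move. Removal of the trend ended the call for Gm33051 (-0.62, adjusted p = 0.0791).
Gm16272 (105, 145 and 155 in sham against 85.8, 57.6 and 67.4, -0.93 ± 0.24) has exons over Ndufb2, a gene of respiratory complex I that fell by 0.78 on the log2 scale (adjusted p = 0.00975, limma). In the pair counts the partner of Gm16272 is Gm42420, the coding gene with the longest overlap. Gm42420 shares no exon bases with it and changed by -0.78 ± 0.15 (adjusted p = 0.00895, limma). All the value of Gm16272 lay over opposite exons, and its groups did not overlap. Its call (adjusted p = 0.0233) was lost in the absence of sham 2, sham 3 or nano-TiO2 3 (highest adjusted p 0.0778). Removal of the trend also ended it, at -0.02 (adjusted p = 0.965).
Med9os, with no coding gene on the other strand, fell from 11.0, 20.7 and 17.3 to 6.52, 3.46 and 4.60, a change of -1.56 ± 0.47 (adjusted p = 0.038, limma). Leaving out any 1 library ended that call, as did removal of the trend (-1.19, adjusted p = 0.138), and Med9os reached the bound only through sham.

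The 8 largest rises were of low members, all 8 of them inside the span of the partner. Of these 8, 7 had a sham mean under 10 and reached the bound only through nano-TiO2, so that they could not have been members without a rise; the exception was Gm43915 (means of 10.5 and 45.4). Their values are given as a description. A930001M01Rik (chromosome 15) had 0, 3.88 and 1.82 in sham and 20.6, 29.9 and 26.0 in nano-TiO2, a log2 change on the value + 1 scale of 3.45 ± 0.64 (adjusted p = 0.00751, limma). All its value lay in an intron of Tbc1d22a, a gene of a Rab GTPase regulator, which had 416, 447 and 434 against 267, 351 and 333. The Tbc1d22a change of -0.45 did not pass (adjusted p = 0.0647, limma).
Gm28370 had 3.39, 3.88 and 3.64 in sham and 21.7, 20.7 and 28.3 in nano-TiO2 (2.40 ± 0.41, adjusted p = 0.0062, limma), off the exons of Gm20498, which fell by 0.49 on the log2 scale. Gm43915, inside the actin regulator Mical3, had 7.62, 12.9 and 10.9 against 50.0, 56.4 and 29.9 (1.99 ± 0.37, adjusted p = 0.00758) while Mical3 rose by 0.55. The groups of these 3 genes did not overlap. Gm43915 stayed called when any single library was left out.
Gm15910 inside Msrb3, a methionine sulfoxide reductase gene, changed by 2.60 ± 0.66, and Gm26789 inside the ubiquitin ligase gene Herc4 by 2.11 ± 0.49. Both lay wholly off partner exons. Both partners rose, by 1.27 and 1.20. Neither call held in the absence of nano-TiO2 1 or of nano-TiO2 3 (highest adjusted p 0.078 and 0.0745), and that of Gm15910 did not hold after removal of the trend (adjusted p = 0.0562).
Gm16599 (2.45 ± 0.67) and D630008O14Rik (1.68 ± 0.44) had 98.7% and 89.4% of their value over opposite exons, within Cux1, a homeobox transcription factor gene, and Bcl2, an inhibitor of cell death. Cux1 rose by 0.91 and Bcl2 by 1.20. Leaving out any nano-TiO2 library or sham 1 ended the call for Gm16599, and sham 1, sham 2, nano-TiO2 1 or 3 that for D630008O14Rik (highest adjusted p 0.0867 and 0.0986). Gm14540 (2.41 ± 0.77, adjusted p = 0.0445, limma) lay against Chchd3, a gene of mitochondrial cristae structure that did not pass, and its call held only when sham 1 was the library left out (highest adjusted p of the others 0.149) and was lost after removal of the trend (adjusted p = 0.131).

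The changes of members and partners ran alongside each other in pairs that share exon bases, and hardly in the other pairs. Across 683 pairs, Pearson's r of the log2 changes was 0.67 (Spearman's rho 0.72). It was 0.78 over the 625 pairs with shared exon bases and 0.02 over the 58 without. These are descriptions across genes, which share libraries and, over shared bases, possibly reads. By the share of value over opposite exons, r was 0.85 in 448 pairs with 75% or more, 0.58 in 140 with 25% to 75% and 0.11 in 93 with less. Pairs without shared bases are also lower in value. Among pairs with a member mean of 50 or more, r was 0.86 with shared bases (296 pairs) and -0.01 without (19 pairs).
When each member was reduced to its bins more than 50 bases clear of any exon of another gene, 169 pairs could be fitted and r was 0.18, against 0.33 for the same pairs with all bins. In bins outside the partner's span altogether it was 0.26 over 79 pairs, against 0.55.
By arrangement, r was 0.79 for the 181 tail-to-tail pairs, 0.71 for 29 in which the member contains the partner, 0.69 for 187 head-to-head pairs and 0.62 for 286 in which the member lies inside. In bins clear of other exons it was -0.07, 0.47, 0.29 and 0.13 over 38, 4, 69 and 58 pairs.

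**Figure D4:**
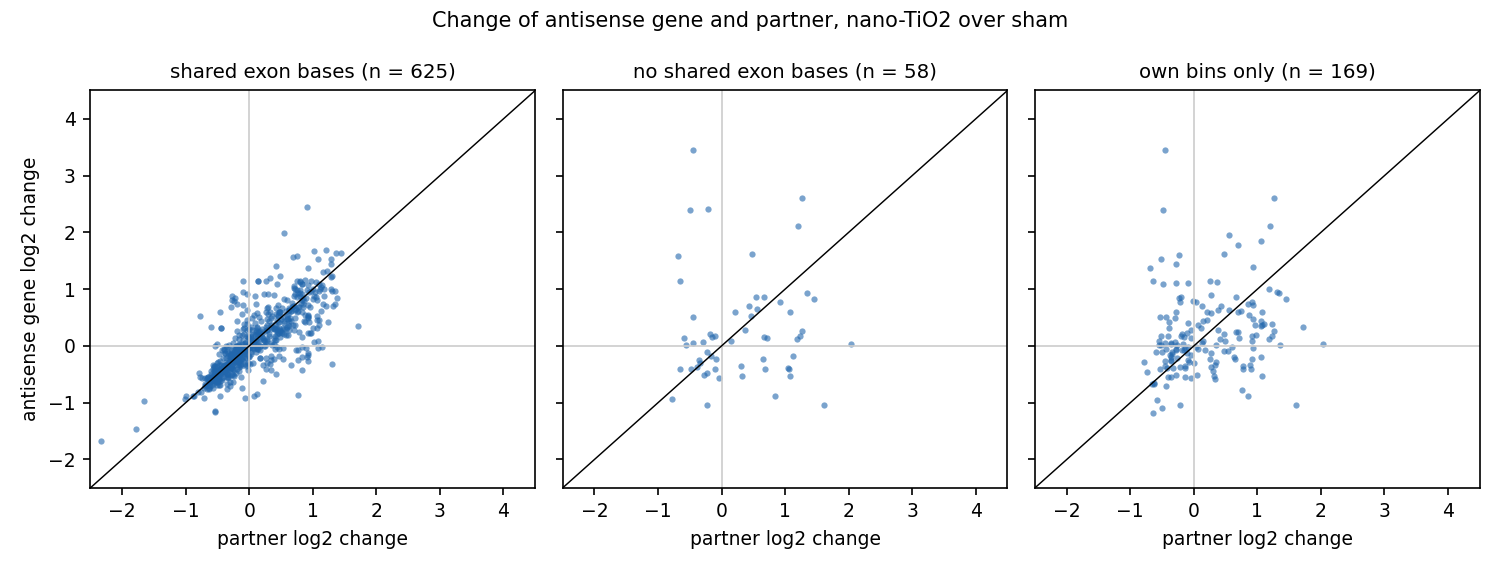
Each point is a pair, with the log2 change of the partner (x) and of the antisense gene (y), nano-TiO2 over sham, and the line marks equal change. Points follow the line in the 625 pairs with shared exon bases (r 0.78) and do not in the 58 pairs without (r 0.02) or in bins clear of other exons (169 pairs, r 0.18).

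Of 663 different partners tested, 142 were higher (21.4%) and 76 lower (11.5%) by limma, where 14.9% and 12.6% of all genes were. After removal of the trend 35 were higher and 32 lower, beside 4.13% and 4.5% of all genes. Salmon, which assigns reads to spliced transcripts and was given 1 member's transcripts only, gave 128 higher and 84 lower of 651 partners by edgeR's quasi-likelihood test, against 15.5% and 12.8% of all genes there. When 1 library was left out, the partners called by limma numbered 70 and 19 in the absence of nano-TiO2 1, 80 and 28 in that of nano-TiO2 3, 81 and 30 in that of sham 2 and 96 and 33 in that of sham 1. The shares of all genes called in these fits stand above. Those called in the Salmon data numbered 56 and 17 (6.55% and 3.35% of all genes there), 67 and 20 (7.47% and 3.88%), 73 and 12 (8.52% and 2.73%), and 86 and 22 (10.6% and 3.9%). Without sham 3 the lower Salmon calls were 50. Table and Salmon changes of a partner had r 0.98 over 650 partners.
Both genes of 62 pairs passed, 37 both higher, 22 both lower and 3 in opposite directions. Of these 62 pairs, 56 share exon bases, and the 3 opposite pairs do not. In 162 of 224 pairs with a called partner the member did not pass, and 13 called members had a partner that did not. No such counts over all noncoding and coding pairs stand beside these, so they describe these pairs only.

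The 3 opposite pairs were Gm15564 with Parp9, D830024N08Rik with Tecr, and Gm28370 with Gm20498. Gm15564, the highest member off its partner's exons, had 7342, 8074 and 5792 in sham and 3429, 3609 and 4419 in nano-TiO2, a change of -0.88 ± 0.16 (adjusted p = 0.00662, limma). Parp9, a gene of the interferon response, had 85.5, 47.9 and 71.8 against 149, 103 and 114 (0.85 ± 0.27, adjusted p = 0.0454), and its neighbour Dtx3l changed by 1.13. No sham library overlapped a nano-TiO2 library in either gene.
D830024N08Rik had 41.5, 45.3 and 62.8 in sham and 236, 77.2 and 179 in nano-TiO2 (1.58 ± 0.39, adjusted p = 0.0186, limma). Tecr, an enzyme of fatty acid elongation, had 9103, 8908 and 7393 against 4475, 6347 and 5077 (-0.69 ± 0.15). The D830024N08Rik call did not hold in the absence of either of sham 1 and 2 or nano-TiO2 1 and 3 (highest adjusted p 0.0693). Its lowest nano-TiO2 library stood above its highest sham library.

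The ratio of member to partner was also tested, as a ratio formed in each library. It differed in 23 of 683 pairs by limma, 11 higher and 12 lower, while 10.7% of all 1685 noncoding and coding pairs passed, 1.36% higher and 9.32% lower. In all 12 lower pairs the partner had risen, and 10 of those 12 members did not pass on their own. The rule named 6 pairs by the size of the change. A930001M01Rik to Tbc1d22a changed by 3.91 ± 0.53, Gm28370 to Gm20498 by 2.89 ± 0.22, Mir133a-1hg to Mib1 by -2.65 ± 0.54, D830024N08Rik to Tecr by 2.26 ± 0.53, Nr6a1os to Nr6a1 by -2.01 ± 0.38 and AC109619.1 to Macrod1 by 1.79 ± 0.32. Members of the first 2 of these pairs reached the bound only through nano-TiO2, so a rise of their ratio was favoured by the choice of members. The partner Nr6a1 also reached it only through nano-TiO2, so a fall of the Nr6a1os ratio was favoured too. The Mir133a-1hg pair held only in the absence of nano-TiO2 2, and AC109619.1 failed in that of sham 1, sham 2 or nano-TiO2 1. The pair of Tecr failed in that of sham 1, sham 2, nano-TiO2 1 or 3, and Nr6a1os in that of sham 2, sham 3, nano-TiO2 1 or 3 (highest adjusted p over these pairs 0.13). Removal of the trend ended the calls for Mir133a-1hg (-1.67, adjusted p = 0.0661) and Nr6a1os (-1.36, adjusted p = 0.0579).
Other pairs are named after their values were seen. Gm11716 (chromosome 11), in an intron of the lipid transfer gene Pitpnc1, had 133, 147 and 280 in sham and 180, 59.9 and 169 in nano-TiO2, while Pitpnc1 had 249, 282 and 448 against 873, 408 and 836. Both were highest in sham 3 of the sham pools and lowest in nano-TiO2 2 of the others. Their ratio changed by -1.60 ± 0.18 (adjusted p = 0.00325, limma), although Gm11716 alone did not pass (-0.52 ± 0.44). After removal of the trend the ratio did not pass (-0.73, adjusted p = 0.0576).
Prox1os (chromosome 1), head to head with the homeobox gene Prox1, had 55.0, 62.1 and 63.7 in sham and 51.0, 57.6 and 42.1 in nano-TiO2, while Prox1 had 494, 436 and 497 against 1120, 800.4 and 811. The groups of Prox1os overlapped and those of Prox1 did not. Of the Prox1os value, 83.6% lay outside opposite coding genes. The ratio changed by -1.19 ± 0.22 (adjusted p = 0.0169, limma) and did not pass in the absence of sham 2, nano-TiO2 1 or nano-TiO2 3 (highest adjusted p 0.0676), nor after removal of the trend (-0.50, adjusted p = 0.217).
Brip1os (chromosome 11), which contains Ints2, a gene of the Integrator complex, had 415, 445 and 413 in sham and 561, 576 and 571 in nano-TiO2, and Ints2 had 98.2, 91.8 and 80.9 against 208, 223 and 207. Both were higher in every nano-TiO2 library, by 0.42 ± 0.14 and 1.23 ± 0.18 (adjusted p = 0.0445 and 0.00436, limma), and 95.1% of the Brip1os value lay outside opposite coding genes. The ratio changed by -0.81 ± 0.14 (adjusted p = 0.0143), a call lost in the absence of nano-TiO2 1 (adjusted p = 0.0539). The rise of Brip1os itself did not hold when any 1 library was left out (adjusted p 0.071 to 0.133), and after removal of the trend it was -0.10 (adjusted p = 0.748).
Of the 23 pairs, 15 had under 25% of the member's value over opposite exons and 14 lay inside the partner. In bins clear of other exons, 24 of 169 pairs passed (14.2%), 12 higher and 12 lower, where the background was 18.4%, 2.52% higher and 15.9% lower. With all bins, the count of pairs that passed was 13 in the absence of sham 1, 9 in that of sham 2, 14 in that of sham 3, 4 in that of nano-TiO2 1, 12 in that of nano-TiO2 3, and 5 in that of both sham 2 and nano-TiO2 3. Of all pairs, 6.59%, 5.99%, 9.79%, 5.1%, 6.29% and 2.85% passed in these fits. After removal of the trend on exon length and GC content 71 pairs passed (10.4%), 67 higher and 4 lower, near the 11.3% of all pairs, and 10 of the 23 were among them in the same direction.

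**Figure D5:**
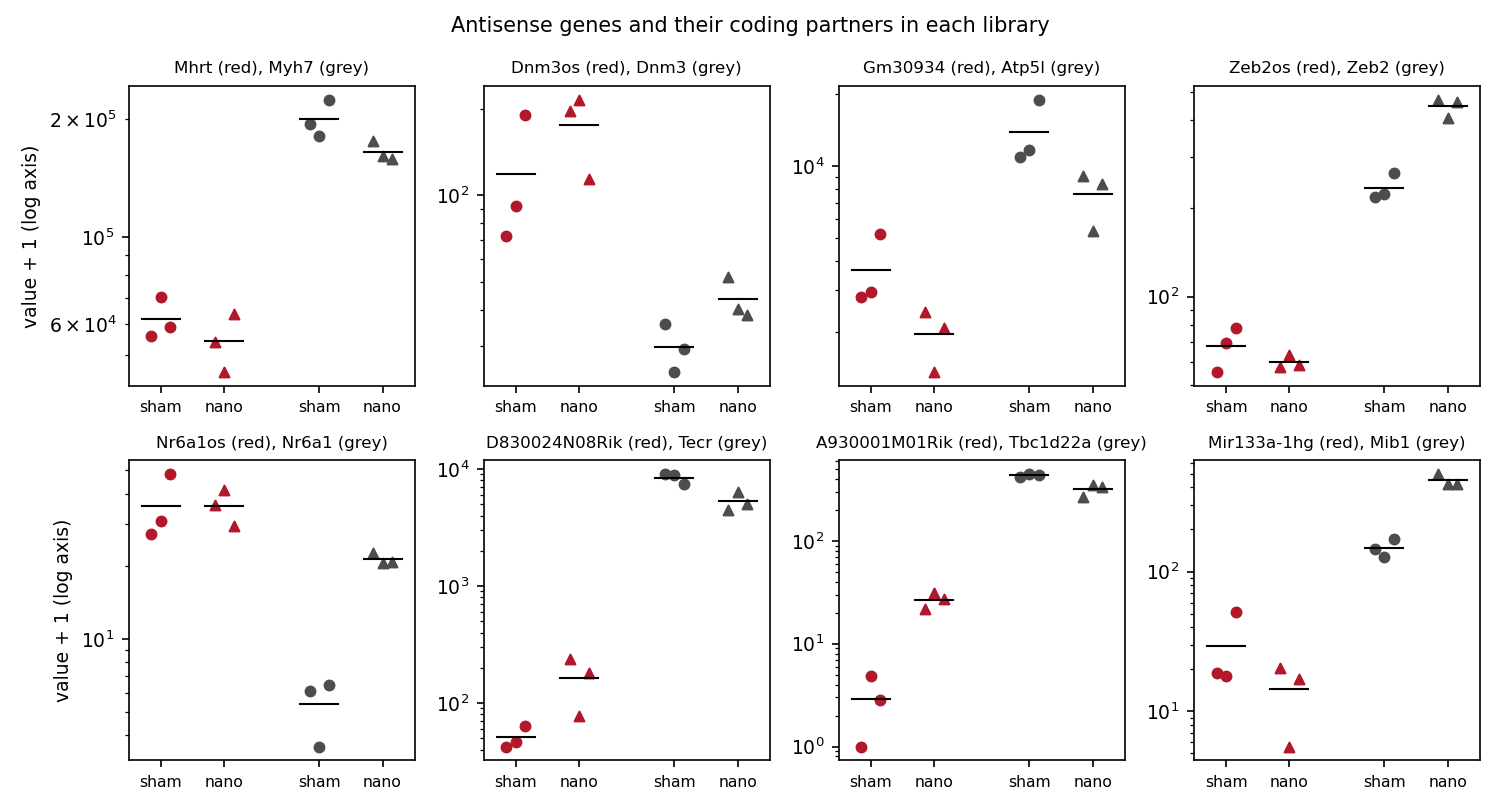
Points give the value + 1 (log axis) of 8 antisense genes (red) and their partners (grey) in 3 sham (circles) and 3 nano-TiO2 (triangles) libraries, with the group mean as a line. Zeb2, Nr6a1 and Mib1 are higher in every nano-TiO2 library than in any sham library, while the groups of Zeb2os, Nr6a1os and Mir133a-1hg overlap.

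Among antisense genes known by name, Dnm3os, Nr6a1os and Mir133a-1hg had no value over opposite exons, while most of that of Tsix, Nespas and Zeb2os lay there. Dnm3os had 71.1, 90.5 and 190 in sham and 196, 214 and 113 in nano-TiO2, with overlapping groups and a change of 0.64 ± 0.38 (adjusted p = 0.226, limma). In the absence of sham 3 that change passed (adjusted p = 0.037). Per kilobase of exon its value of 18.4 stood above the 1.46 of Dnm3, a dynamin gene, which changed by 0.56 ± 0.29. Of its value, 98.4% lay in the Dnm3 intron.
Nr6a1os also stood above its partner, at 43.0 per kilobase against 1.14 for Nr6a1, the germ cell nuclear factor gene. It had 26.2, 29.7 and 47.3 in sham and 34.8, 40.3 and 28.3 in nano-TiO2 (0.03 ± 0.32), while Nr6a1 had 5.08, 2.59 and 5.46 against 21.7, 19.6 and 19.9 (2.04 ± 0.44, adjusted p = 0.012, limma). Only the Nr6a1 groups stood apart.
Zeb2os had 54.2, 68.5 and 77.3 in sham and 56.5, 62.2 and 57.5 in nano-TiO2 (-0.17 ± 0.24). Zeb2, a zinc-finger factor of epithelial to mesenchymal transition, had 218, 222 and 263 against 468, 404 and 461 (0.92 ± 0.16, adjusted p = 0.00632, limma). The ratio passed (-1.09 ± 0.19, adjusted p = 0.0148, limma), but not in the absence of sham 2, nano-TiO2 1 or nano-TiO2 3 (highest adjusted p 0.063), after removal of the trend (-0.32, adjusted p = 0.342) or in bins clear of other exons (-0.74, adjusted p = 0.192).
Mir133a-1hg, host of a muscle microRNA cluster on chromosome 18, had 17.8, 16.8 and 50.0 against 19.6, 4.61 and 16.1. Mib1, a ubiquitin ligase for Notch ligands, had 143, 127 and 170 against 499, 420 and 425 (1.61 ± 0.18, adjusted p = 0.00386, limma).

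Tsix, the antisense RNA of the X-inactivation RNA Xist, had 212, 137 and 96.4 in sham and 399, 336 and 241 in nano-TiO2 (1.17 ± 0.30, adjusted p = 0.0213, limma). Its groups did not overlap, but 97.5% of its value lay over opposite exons, and Xist changed by 1.61 ± 0.29 (adjusted p = 0.00688). The pools held both sexes, so the share of female hearts in a pool was not tested. Leaving out sham 2 or nano-TiO2 1 ended the Tsix call (highest adjusted p 0.0798), as did removal of the trend (0.88, adjusted p = 0.0791).
Nespas, against the imprinted Gnas locus, changed by -0.00 ± 0.34 and Gnas by -0.03 ± 0.24. Of the Nespas value, 77.0% lay over opposite exons. Hotairm1, of the HoxA cluster, had 36.4, 20.7 and 11.8 in sham and 7.60, 23.0 and 9.96 in nano-TiO2 (-0.73 ± 0.53, adjusted p = 0.322, limma), with 53.5% of it over exons of other genes on its own strand.

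Members against cardiac genes on the lists used stand beside the 10.9% of all members and 27.4% of all genes that passed. Of 8 members against cardiac transcription factors, 1 was higher and none lower. It was Gm16141 in Meis1, a homeobox factor gene, with 30.5, 20.7 and 13.6 in sham and 54.3, 79.5 and 64.3 in nano-TiO2 (1.62 ± 0.34, adjusted p = 0.0108, limma), named after its values were seen, and all its value lay off Meis1 exons. Meis1 changed by 0.48 ± 0.18 (adjusted p = 0.0698).
Of 9 members against sarcomere and muscle genes and 3 against signalling genes none passed. 1700113A16Rik, against the transcription factor gene Mef2d, changed by -0.15 ± 0.25 and Mef2d by -0.24 ± 0.14. Of the 7 transcription factor partners 2 were higher (Zeb2 and Nr2f1), of the 7 sarcomere partners Ttn was higher (0.93) and Myl4 lower (-0.55), and of the 3 signalling partners none passed.

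In bins clear of other exons, 197 members kept a mean of 10 or more, and 13 were higher and 2 lower (7.61%), against 28.1% of all genes in that fit (15.2% higher, 12.9% lower). This bound too can be reached through 1 group alone, and such members had to differ to be tested. Of the 79 members called with all bins, 54 could not be tested there. The other 25 gave 14 calls in the same direction and 1 in the opposite one.
That member was Gm37422, tail to tail with the methyltransferase gene Smyd2 and named after its values were seen. With all bins it had 2126, 2253 and 2406 in sham and 1717, 1447 and 1730 in nano-TiO2, a change of -0.47 (adjusted p = 0.0242, limma), and Smyd2 changed by -0.51. In bins clear of other exons it had 16.1, 6.47 and 12.7 against 38.0, 34.5 and 29.9, a change of 1.54 (adjusted p = 0.021, limma). Of its value, 98.7% lay over opposite exons. The change with all bins held only in the absence of nano-TiO2 2 and was lost after removal of the trend (-0.26, adjusted p = 0.344).
Tug1, a long noncoding RNA whose start faces that of Morc2a, was the highest member that rose in such bins, and was also named after its values were seen. There it had 411, 234 and 497 in sham and 1187, 935 and 773 in nano-TiO2 (1.39, adjusted p = 0.00901, limma), a call lost after removal of the trend (0.73, adjusted p = 0.071). Its partner rose by 0.92, and no sham library reached a nano-TiO2 one in either gene.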

How the data were processed

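RNA was measured in 6 input libraries, 3 sham and 3 nano-TiO2, grouped by their titles. In the series table the authors deposited a signal for every bin, equal to reads over 1 size factor per library; multiplied back, 100% of values were whole (tolerance 0.001). The deposited Salmon files hold estimated counts and TPM values per transcript, per the file headers; estimated counts were summed per gene and rounded, and TPM values were not tested. Named in the submitters' processing notes, with no role, are GRCm39, DESeq2 1.34.0, HISAT2 2.2.1 and Salmon 1.5.2. How bins were counted, and whether by strand, is not given in the sources used.

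Gene types, exons, strands and partners came from GENCODE M21 (GRCm38), matched by gene ID, so coordinates are those of that build. For 99.8% of antisense genes the bins ended within 50 bases of the annotated exon length. Bins were placed after a 100-base move along the joined exons, chosen after seeing the data. It leaves the first 100 bases of a gene empty. Over the 133 bases shared with Gm30934, Atp5l had a value of 0 both as deposited and after the move.

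Bins were summed per gene. Because the unit is signal, the main test was limma 3.58.1 (trend, robust) on log2(value + 1) over the 18496 genes with a mean of 10 or more, at a Benjamini-Hochberg adjusted p under 0.05. The partner is the opposite-strand coding gene with the longest overlap. The ratio test used limma on the log2 ratio over 1685 noncoding and coding pairs. Salmon counts were tested with edgeR 4.0.16 (quasi-likelihood, TMM, filterByExpr). On the recovered reads edgeR called 2851 genes higher and 2017 lower. Trends over length and GC were removed with mgcv 1.9.3, and DESeq2 1.42.0 was an alternative. On simulated counts for sham against nano-TiO2 with 18496 genes, limma recovered 43% of changes of log2 1 and 98% of log2 2, with 3 false calls of 144. With edgeR these were 42% and 99%, with 4 of 145. Those counts were drawn independently with the same fixed dispersion for every gene, and far fewer genes changed than were called here. They held no differences in cell make-up between libraries, so they cannot give the rate of false calls in the real data. Libraries of a group differed by more than sampling noise (chi-square per degree of freedom 14.9 or more).

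Named were the 8 highest members, among called members with groups apart the 8 that rose and the 8 that fell most, known antisense genes, up to 8 members against cardiac genes, up to 6 pairs past the ratio test by size and pairs called in opposite directions, 33 in all; 1 further member that the rule names is not reported here. Members, lists and rules were chosen with earlier results of these data known.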

Additional observations from a re-analysis of the deposited data

How the results depend on the processing

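Most named values kept direction and side of the threshold: over the alternatives for named members and pairs, 691 values did, 227 lost a call, 5 gained one and 33 changed sign. The 691 include values that did not pass with the main settings and so had no call to lose. Losses were most frequent without sham 2 and nano-TiO2 3 (38 values, with 18 kept) and without nano-TiO2 1 (30, with 26 kept). With library totals only, 151 members were higher and 0 lower (median 0.44), partners 259 and 0, and Salmon partners 231 and 0. All genes were then 5806 higher and 35 lower of 18496, and 4269 and 50 of 13928 in the Salmon data. After removal of a trend on exon length and GC content, 9 members were lower, the median was 0.25, partners were 35 higher and 32 lower, r was 0.48 and 71 ratios differed. With a mean of 50 or more, 29 of 328 members were higher and 35 lower, which turns the balance. All genes there were 2575 higher and 2510 lower of 14174. The median was -0.17 for members and -0.09 for all genes, and r was 0.80. With no filter 18 members were lower, beside 1830 of all 33171 genes. With pseudocount 10, 42 ratios differed, beside 245 of all 1685 pairs. Without sham 2 and nano-TiO2 3, 0 members and 0 partners passed in either direction by limma, 5 ratios differed and r was 0.61. By unadjusted limma p under 0.05, 48 members were higher and 36 lower, with no share over all genes beside these counts. Other tools gave 50 higher and 26 lower members (edgeR) and 51 and 37 (DESeq2). Of all genes, 15.4% and 10.9% passed with edgeR, and 17.2% and 14.1% with DESeq2.

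In bins clear of other exons, 13 members were higher and 2 lower, the median was 0.068 and r 0.18. All genes in that fit were 2724 higher and 2325 lower of 17971. With the trend also removed, 9 members were higher and 1 lower, the median was 0.18 and r 0.12, with partners 35 and 30. All genes were then 720 higher and 781 lower of 17938. Outside the partner's span 3 were higher and 1 lower, r was 0.26 and 10 ratios differed. With and without shared exons r was 0.78 and 0.017. Fewer members could be tested in each of these.

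Leaving out 1 library gave 13 to 49 higher and 8 to 34 lower members, with medians of -0.029 to 0.048. All genes in these fits were 1292 to 2834 higher and 767 to 2517 lower of 18496. Partners were 70 to 144 higher and 19 to 93 lower, and r was 0.61 to 0.70. In 4 to 20 pairs the ratio differed, beside 86 to 165 of all 1685 pairs. Salmon partners were 56 to 129 higher and 12 to 103 lower, beside 912 to 2240 and 380 to 2099 of all 13928 genes there. Replicate numbers did not pair the libraries (correlations of same-numbered libraries -0.36, 0.01 and -0.08). With the replicate block 29 members were higher and 15 lower, 41 partners lower, 14 ratios differed, and Salmon partners were 77 higher and 30 lower. All genes were then 2154 higher and 1421 lower of 18496, and 1262 and 796 of 13928 in the Salmon data. Of all 1685 pairs, 119 ratios differed.

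Among members named by the rule, signs changed for those whose changes did not pass with the main settings, and for 1 ratio. Of these, Gm29015 alone passed with the other sign (trend removed, adjusted p = 0.0129, limma). Among members named after their values were seen, Gm37422 passed at -0.47 with all bins and at 1.54 in bins clear of other exons. Brip1os passed at 0.42 and was at -0.10, which did not pass, with the trend removed. With library totals only, Mhrt was at 0.28, Gm29015 0.28, Gm31251 0.11, Gm49130 0.31, 1700113A16Rik 0.32, Nespas 0.46 and Zeb2os 0.30. With the trend removed, Mhrt was at 0.27, Gm29015 0.90, Gm31251 0.011, Gm49130 0.49, 1700113A16Rik 0.11 and Nespas 0.29. In bins clear of other exons, Mhrt was at 1.44, A930016O22Rik 0.079 and Zeb2os 0.18. There Mhrt reached the bound only through nano-TiO2. With the trend also removed in these bins, Mhrt was at 1.93, A930016O22Rik 0.29, Gm31251 0.32, Zeb2os 0.087 and the ratio of Zeb2os to Zeb2 0.033. Nespas was at 0.0036 with pseudocount 10, 0.025 with TMM, 0.11 with edgeR and 0.11 with DESeq2. Leaving out 1 library gave -0.32 to 0.023 for Gm49130, -0.36 to 0.025 for 1700113A16Rik, -0.33 to 0.35 for Nespas and -0.13 to 0.28 for Nr6a1os. The cause was not tested. Low values limit the rises: A930001M01Rik rests on values of at most 29.9 in any library.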
